A study of Homo sapiens with 6 samples.

Results

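The genes described here encode small proline-rich (SPRR) proteins and other precursors of the cornified envelope. The 10 members, SPRR1A, SPRR1B, SPRR2A, SPRR2D, SPRR2E, SPRR3, IVL, FLG, TCHH and ECM1, were chosen by gene symbol. All 10 were found, each on a single row, among 57336 genes of the normalized count matrix after 1 row per symbol was kept. Their levels were compared between KYSE450 and KEAP1null-KYSE450 cells.

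KYSE450 is a human esophageal squamous cell carcinoma line with wild-type NRF2, and KEAP1null-KYSE450 is a monoclonal line derived from it with CRISPR-Cas9 and a guide against KEAP1. The comparison asked how mRNA levels differ when KEAP1, the adaptor through which NRF2 is normally degraded, has been targeted. Both lines were untreated and grown in RPMI1640 medium with fetal bovine serum, and total RNA was sequenced in 3 libraries of each line. Nothing in the sources says that these libraries came from separate cultures, so p-values measure only the spread between these libraries, which may be technical. Because the edited line is a single clone, effects of KEAP1 loss and other differences of that clone cannot be told apart. Summed normalized counts, which are read counts divided by 1 size factor per library, were 56713635, 55911133 and 57380170 in KYSE450 libraries 1 to 3. They were 55634532, 54829313 and 55786419 in KEAP1null-KYSE450 libraries 1 to 3. The total reads recovered from these values ranged from 53027359 to 61543442 in the 4 libraries where this was possible. A level of 3 reads, treated as the floor of detection, corresponded to between 2.77 and 3.21 normalized counts. Floors and intervals for counts cover counting error only.

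The cornified envelope is the cross-linked protein shell that forms beneath the plasma membrane of squamous epithelial cells during terminal differentiation. Transglutaminases join involucrin, SPRR proteins, loricrin and other precursors through glutamine and lysine side chains, and SPRR proteins act as bridges between the other components. In the esophagus SPRR proteins and involucrin are prominent in the suprabasal layers.

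In the GENCODE annotation of GRCh38, 9 of the 10 members lie in the epidermal differentiation complex of chromosome 1, taken here as the stretch between the starts of S100A10 and S100A1. The 6 SPRR members span 122 kb. On the plus strand are SPRR1A (chr1:152984081-152985814), SPRR3 (chr1:153001747-153003856) and SPRR1B (chr1:153031203-153032900). On the minus strand are SPRR2D (chr1:153039732-153041931), SPRR2A (chr1:153056120-153057512) and SPRR2E (chr1:153093135-153106184). Each SPRR gene has 2 exons in its main transcript, and exon 2 holds the whole coding sequence. IVL (chr1:152908546-152911886, plus strand) has the same layout and starts 123 kb before SPRR1B. FLG (chr1:152302165-152325239) and TCHH (chr1:152106317-152115444) are minus-strand genes with 3 exons and coding sequence in exons 2 and 3. ECM1 (chr1:150508062-150513789, plus strand, 10 exons) lies outside the complex.

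KEAP1 mRNA was measured first as a check of the labels. It stood at 5760.4, 5226 and 5146 normalized counts in KYSE450 libraries and at 5737, 4906 and 5317 in KEAP1null-KYSE450 libraries. The groups overlapped. An edit in the transcript would not be visible in counts per gene. NQO1, a quinone reductase gene driven by NRF2, had 15681, 17099.9 and 17093 normalized counts in KYSE450 libraries and 104116, 108806 and 110351 in KEAP1null-KYSE450 libraries. GCLM, which encodes the modifier subunit of the enzyme for the committed step of glutathione synthesis, rose as well, with a log2 fold change of 3.36 (standard error 0.091). Every KEAP1null-KYSE450 library exceeded every KYSE450 library for both genes. NFE2L2, the gene of NRF2 itself, had a log2 fold change of -0.47, short of the threshold of 1.

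Markers of squamous epithelium were present in every library. All 7 listed squamous markers were tested. Their normalized counts summed to between 384834 and 532263 in KYSE450 and between 620356 and 765828 in KEAP1null-KYSE450 libraries. KRT5 alone had means of 208100 in KYSE450 and 568248 in KEAP1null-KYSE450, while the median log2 fold change of the 7 markers was -0.60. KRT5, a basal keratin and the most abundant of them, and KRT4, a suprabasal esophageal keratin, were called higher in KEAP1null-KYSE450 (log2 fold changes 1.46 and 5.17). KRT6A and KRT13 were called lower (log2 fold changes -4.70 and -1.40). SOX2 (-0.997), TP63 (-0.60) and DSG3 (0.41) were not called. KRT5 was not called with quantile normalization (0.87), and neither KRT5 nor KRT13 was called in the test for a change beyond 2-fold. The 4 glandular markers summed to between 10.2 and 14.1 normalized counts per library, with TFF1 and CDX2 at 0. The 4 leukocyte markers summed to between 5.35 and 29.3, with CD3E at the floor. The 5 fibroblast markers summed to 847, 663 and 608 in KYSE450 and to 349, 409 and 436 in KEAP1null-KYSE450 libraries. Nearly all of that was COL1A1, while COL1A2 and DCN were at the floor. Of 3 endothelial markers PECAM1 was at 0, VWF lay between 35.4 and 67.6, and CDH5 lay between 10.7 and 28.9 in KYSE450 and between 1.01 and 3.06, at or under the floor, in KEAP1null-KYSE450 libraries. CDH5 passed the filter through KYSE450 alone, was not tested without KYSE450 library 2 or 3, and was not called in the test beyond 2-fold. Of 3 melanocyte markers MLANA and TYR were at 0, and PMEL lay between 107 and 173. What part these genes play in the results for the envelope genes was not tested.

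Of the 10 members, 7 passed the filter of a mean of at least 10 normalized counts over the 6 libraries. With limma, 4 of them were called lower in KEAP1null-KYSE450 (SPRR1A, SPRR1B, SPRR2A and SPRR3) and 1 was called higher (TCHH), where a call needed an adjusted p under 0.05 and a log2 fold change of 1 or more in either direction. FLG and ECM1 were tested and not called. Across all 16689 genes tested, 5.99% were called lower and 12.2% higher. The 4 lower members passed the filter through the KYSE450 libraries alone, since KEAP1null-KYSE450 was at or under the floor, so they had to differ once they passed. The median log2 fold change of the 7 tested members was -4.78, and -3.55 with genes at 0 set to their bound, beside 0.0040 for all genes tested. SPRR2D, SPRR2E and IVL did not pass the filter and were not tested. In KEAP1null-KYSE450 all libraries were at 0 for 5 members and at or under the floor for 6, while in KYSE450 only IVL was at or under the floor throughout.

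**Figure D1:**
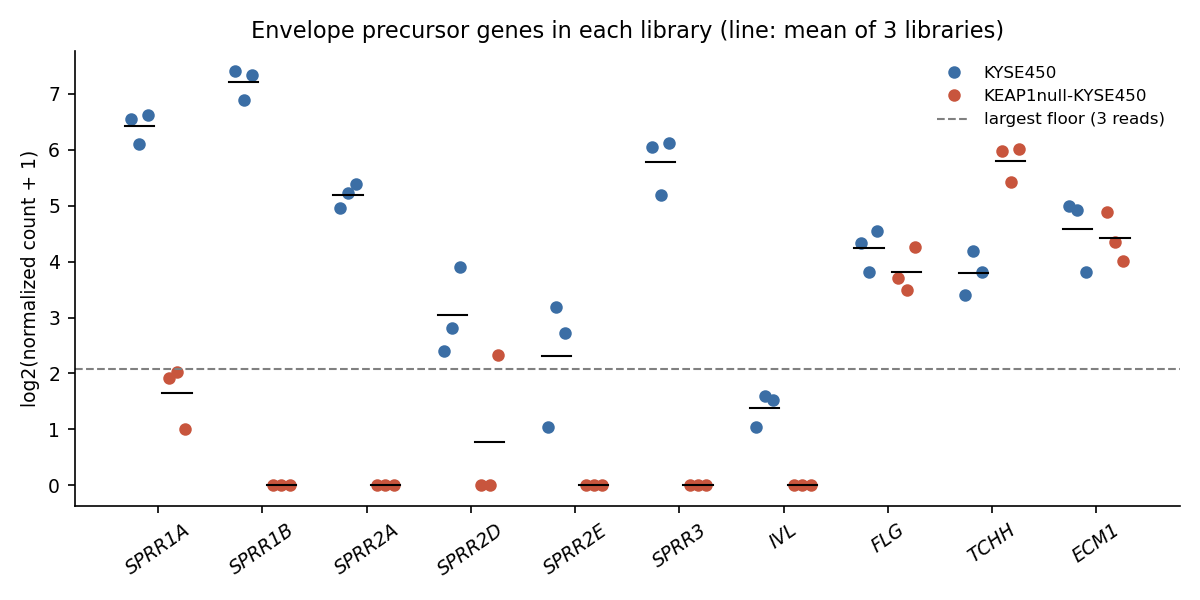
Normalized counts of the 10 members in each library, as log2(normalized count + 1), for KYSE450 (blue) and KEAP1null-KYSE450 (red); black lines are means of 3 libraries and the dashed line is the largest floor of 3 reads, 3.21 normalized counts. SPRR1A, SPRR1B, SPRR2A and SPRR3 lie above the floor in every KYSE450 library and at or under it in every KEAP1null-KYSE450 library. TCHH lies above the floor in every library and is higher in KEAP1null-KYSE450.

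Promoters are shown for the SPRR genes that were called lower together and for TCHH, the member that was called higher. RefSeq promoters on GRCh38.p14, 250 bases before to 50 bases after the start, were found for 8 of the 10 members. SPRR1A lies at chr1:152983831-152984130 (plus strand), SPRR1B at chr1:153030953-153031252 (plus strand), SPRR2A at chr1:153057463-153057762 (minus strand), SPRR3 at chr1:153001499-153001798 (plus strand) and TCHH at chr1:152115395-152115694 (minus strand). Capitals mark matches to AP-1 (TGANTCA), the antioxidant response element core (TGACNNNGC), the TATA box (TATAAA), KLF (CACCC), ETS (AGGAAG) and the octamer (ATGCAAAT), each searched on both strands.
SPRR1A: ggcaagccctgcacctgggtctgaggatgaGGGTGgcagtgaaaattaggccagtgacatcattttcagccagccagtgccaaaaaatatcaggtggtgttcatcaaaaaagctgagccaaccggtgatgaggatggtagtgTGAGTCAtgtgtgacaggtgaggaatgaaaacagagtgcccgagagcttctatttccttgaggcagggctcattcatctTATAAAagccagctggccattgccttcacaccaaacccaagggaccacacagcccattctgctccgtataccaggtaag
SPRR1B: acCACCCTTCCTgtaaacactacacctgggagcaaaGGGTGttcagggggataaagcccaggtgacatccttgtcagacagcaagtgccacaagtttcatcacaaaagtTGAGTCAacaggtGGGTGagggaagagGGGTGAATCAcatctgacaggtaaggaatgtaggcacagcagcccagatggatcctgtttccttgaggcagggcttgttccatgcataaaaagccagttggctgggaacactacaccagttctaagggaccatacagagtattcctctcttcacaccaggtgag
SPRR2A: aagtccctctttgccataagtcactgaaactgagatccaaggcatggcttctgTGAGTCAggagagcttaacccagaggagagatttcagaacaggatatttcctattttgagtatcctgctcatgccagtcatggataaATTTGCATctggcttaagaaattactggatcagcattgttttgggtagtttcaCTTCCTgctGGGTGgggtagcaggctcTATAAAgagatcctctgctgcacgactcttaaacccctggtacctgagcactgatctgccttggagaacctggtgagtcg
SPRR3: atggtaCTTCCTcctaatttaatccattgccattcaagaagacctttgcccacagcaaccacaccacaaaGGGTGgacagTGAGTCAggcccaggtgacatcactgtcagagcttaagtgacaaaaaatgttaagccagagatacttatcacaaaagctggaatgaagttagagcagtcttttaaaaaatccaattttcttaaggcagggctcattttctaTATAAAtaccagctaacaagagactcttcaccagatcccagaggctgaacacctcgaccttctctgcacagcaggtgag
TCHH: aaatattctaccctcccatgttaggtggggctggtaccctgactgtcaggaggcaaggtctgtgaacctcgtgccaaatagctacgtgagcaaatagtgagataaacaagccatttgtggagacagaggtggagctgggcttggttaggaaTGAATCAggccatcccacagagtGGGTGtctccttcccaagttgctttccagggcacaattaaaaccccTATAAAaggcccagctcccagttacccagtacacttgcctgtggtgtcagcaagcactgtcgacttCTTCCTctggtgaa

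AP-1 letters occurred in all 8 member promoters and in 7.71% of all 35116 RefSeq promoters of this length. In SPRR1A the match began 108 bases before the start. SPRR1B had a pair of matches, beginning 141 and 111 bases before the start, and the nearer one overlapped a KLF match. The match began 197 bases before the start in SPRR2A, 170 bases in SPRR3 and 99 bases in TCHH. The TATA box stood 29 or 30 bases before the start in 7 member promoters, all except SPRR1B, and occurred in 11.5% of all promoters. KLF letters were found in 7 member promoters (all except IVL) against 59.9% of all, and ETS letters in 7 (all except SPRR1A) against 33.6%. In SPRR1B the ETS match shared 1 base with a KLF match, and in IVL an ETS match shared 1 base with the AP-1 match. The octamer was found in SPRR2A alone among the members and in 1.77% of all promoters. No member promoter held the antioxidant response element core, which occurred in 13.3% of all promoters. AP-1 and KLF letters were thus present in the promoters of the 4 SPRR genes called lower and in that of TCHH. A match describes letters in this window and no binding.

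SPRR1B encodes a cross-bridging SPRR protein of stratified epithelia and was the member with the highest level in KYSE450. It had 168, 118 and 160.4 normalized counts in KYSE450 libraries 1 to 3 and 0 in each KEAP1null-KYSE450 library. The groups did not overlap, and across the recovered libraries 329 reads stood against 0. The mean in KYSE450 was 149 ± 26.8 (SD, n = 3), and the level in KEAP1null-KYSE450 was at least 48.7-fold lower, against a floor of 3 reads per library. Since SPRR1B passed the filter through KYSE450 alone, it had to differ, and its adjusted p is no further support. The log2 fold change from limma was -7.21, with a standard error of 0.51 and a Benjamini-Hochberg adjusted p of 2.25e-07. This fitted value of a gene at 0 depends on the pseudocount, moving from -10.52 with 0.1 to -3.97 with 10, and is no bound. In these bulk libraries, fewer cells expressing a gene and less RNA per cell cannot be told apart.

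SPRR1A encodes a closely related bridging protein and was the only member called lower that kept reads in every KEAP1null-KYSE450 library. Its normalized counts were 93.0, 67.7 and 97.0 in KYSE450 and 2.77, 3.06 and 1.01 in KEAP1null-KYSE450 libraries. Every KEAP1null-KYSE450 library was at or under the floor, far below the lowest KYSE450 library. In the recovered libraries 191 reads in KYSE450 stood against 6 in KEAP1null-KYSE450, a ratio of means of 32.7 with an exact 95% counting interval of 14.8 to 90.3. SPRR1A too passed the filter through KYSE450 alone and had to differ, so its adjusted p is no further support. The log2 fold change from limma with Benjamini-Hochberg adjustment was -4.78 (95% confidence interval -5.82 to -3.73, adjusted p = 6.18e-06). It moved to -5.30 with a pseudocount of 0.1 and to -2.96, outside this interval, with 10.

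SPRR3, also known as esophagin, is the SPRR gene typical of internal stratified epithelia such as the esophagus. It had 65.2, 35.4 and 69.0 normalized counts in KYSE450 libraries and 0 in all 3 KEAP1null-KYSE450 libraries. Library 2 was the lowest KYSE450 library for SPRR3, as it was for SPRR1A and SPRR1B, and all KYSE450 libraries were above the floor. The KYSE450 mean was 56.5 ± 18.4 (SD, n = 3), and the other line was at least 18.5-fold lower. As SPRR3 passed the filter through KYSE450 alone, it had to differ, and its adjusted p is no further support. limma fitted a log2 fold change of -5.79, with a standard error of 0.65 and a Benjamini-Hochberg adjusted p of 1.46e-05. This value also depends on the pseudocount, from -9.09 with 0.1 to -2.69 with 10.

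The SPRR2 genes encode shorter bridging proteins and form a family of near copies. SPRR2A had 29.9, 36.4 and 41.0 normalized counts in KYSE450 libraries and 0 in each KEAP1null-KYSE450 library. It differed from the SPRR1 genes and SPRR3 in that library 1 and not library 2 was the lowest. Its KYSE450 mean was 35.8 ± 5.56 (SD, n = 3), and KEAP1null-KYSE450 was at least 11.7-fold lower. Passing the filter through KYSE450 alone, SPRR2A had to differ, so its adjusted p is no further support. The value fitted by limma was -5.19 on the log2 scale (SE 0.69, Benjamini-Hochberg adjusted p = 5.93e-05). With a pseudocount of 0.1 it was -8.48, and with 10 it was -2.19. SPRR2D had 4.28, 6.06 and 13.99 normalized counts in KYSE450 and 0, 0 and 4.04 in KEAP1null-KYSE450 libraries. The lowest KYSE450 value (4.28) and the highest KEAP1null-KYSE450 value (4.04) were nearly equal, with a margin smaller than the floor. The lines are thus not taken as separate for SPRR2D, and its mean of 1.35 in KEAP1null-KYSE450 came from library 3 alone. SPRR2E had 1.07, 8.09 and 5.59 normalized counts in KYSE450 libraries and 0 in the other line, which made its mean at least 1.61-fold higher in KYSE450. The lowest of these KYSE450 values was under the floor. Without the filter SPRR2D, SPRR2E and IVL entered the test, and 1125 of 28641 tested genes were called lower. SPRR2D and SPRR2E were among them, with log2 fold changes of -2.26 (adjusted p = 0.041) and -2.32 (adjusted p = 0.0152), by limma with Benjamini-Hochberg adjustment. These calls rest on few reads, 19 for SPRR2D and 7 for SPRR2E in the recovered KYSE450 libraries.

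Counts within the SPRR2 family are uncertain, because a read that matches near copies may not have been counted for its own gene. Of all windows of 100 bases in the SPRR2A transcript, 21.5% occurred unchanged in another gene, most of them in SPRR2B. The share was 7.44% for SPRR2D and 12.4% for SPRR2E, in both most often with SPRR2A. No window of SPRR1A, SPRR1B, SPRR3, IVL, TCHH or ECM1 occurred in another gene. SPRR2B, SPRR2C, SPRR2F, SPRR2G and SPRR5 were at 0 in all 6 libraries. SPRR4, the remaining SPRR gene, had between 0.93 and 1.07 normalized counts in KYSE450 libraries and 0 in KEAP1null-KYSE450 libraries, so both lines were at or under the floor.

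Summed over the 6 members, SPRR mRNA came to 361, 272 and 387 normalized counts in KYSE450 libraries and to 2.77, 3.06 and 5.04 in KEAP1null-KYSE450 libraries. SPRR1B alone gave 46.4%, 43.5% and 41.4% of the sum in the 3 KYSE450 libraries, and SPRR1A gave 25.7%, 24.9% and 25.1%. The order below them was not constant, since SPRR3 contributed 18%, 13% and 17.8% and SPRR2A 8.28%, 13.4% and 10.6%. In library 2 the shares of SPRR3 and SPRR2A were thus close. In KEAP1null-KYSE450 libraries 1 and 2 the whole sum was SPRR1A, and in library 3 SPRR2D made up 80.0% of it, at a level of a few reads. Per kb of exon the sum was 477 ± 77.8 (SD, n = 3) in KYSE450 and 4.72 ± 0.60 in KEAP1null-KYSE450.

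**Figure D2:**
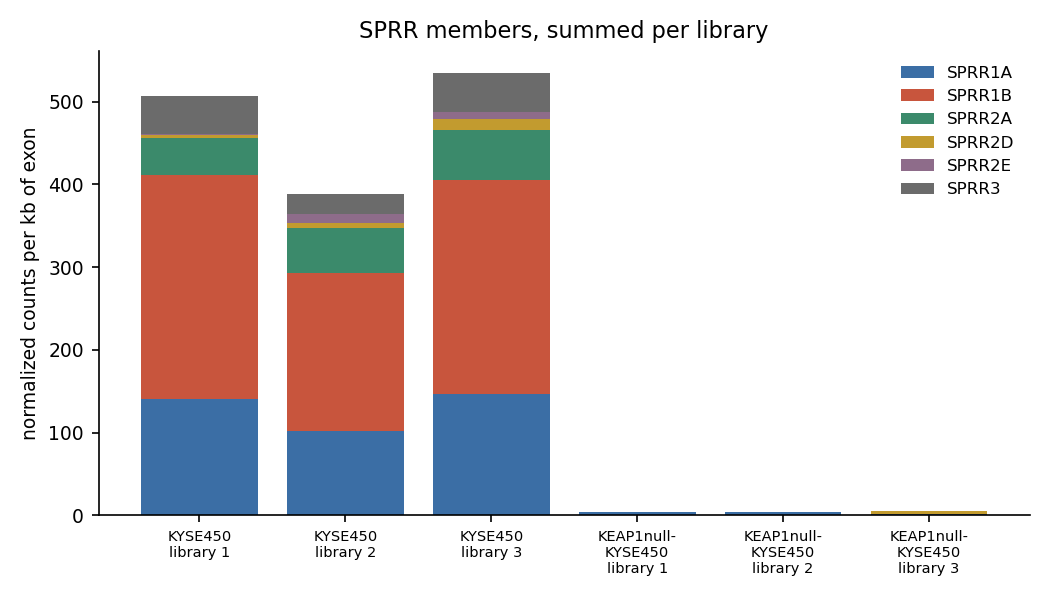
Normalized counts per kb of exon of the 6 SPRR members, stacked for each library, with 1 colour per gene. The bars reach 507, 388 and 535 in KYSE450 and 4.18, 4.62 and 5.36 in KEAP1null-KYSE450 libraries, and SPRR1B is the largest segment in each KYSE450 bar.

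IVL encodes involucrin, an early scaffold protein to which SPRR proteins are joined. Its normalized counts were 1.07, 2.02 and 1.86 in KYSE450 and 0 in all KEAP1null-KYSE450 libraries. Both lines were at or under the floor, so no ratio of their levels is given, and a difference was not detectable at this depth. Without the filter limma fitted -1.39 on the log2 scale, and IVL was not called (Benjamini-Hochberg adjusted p = 0.0585). That fitted value rests on counts at or under the floor in every library and is no estimate of a fold. The gene is overlapped on the opposite strand by a long noncoding RNA gene, and no source says that reads were counted by strand.

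FLG encodes profilaggrin and TCHH encodes trichohyalin, a pair of large proteins that join an S100-like calcium-binding domain to long repeats and bind keratin filaments. FLG had 19.3, 13.1 and 22.4 normalized counts in KYSE450 and 11.996, 10.2 and 18.2 in KEAP1null-KYSE450 libraries. The groups overlapped, and the log2 fold change was -0.42 (95% confidence interval -1.45 to 0.60, adjusted p = 0.483, limma with Benjamini-Hochberg adjustment). With quantile normalization it was -1.06 and still not called. The opposite strand carries FLG-AS1, which had 13.9, 4.04 and 16.8 normalized counts in KYSE450 and 49.8, 56.1 and 76.7 in KEAP1null-KYSE450 libraries. FLG-AS1 was thus called higher while FLG was not, and 11% of the windows of 100 bases of FLG lie in FLG-AS1 as well. Without strand, reads of the gene and its antisense partner cannot be told apart there.

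TCHH, known from the inner root sheath of the hair follicle and from the tongue, was the single member called higher. It had 9.63, 17.2 and 13.1 normalized counts in KYSE450 and 61.8, 41.8 and 63.6 in KEAP1null-KYSE450 libraries. The lowest KEAP1null-KYSE450 library exceeded the highest KYSE450 library, and both lines were above the floor throughout. The mean rose from 13.3 ± 3.78 to 55.7 ± 12.1 (SD, n = 3 each), and 23 reads stood against 108 in the recovered libraries. limma with Benjamini-Hochberg adjustment gave a log2 fold change of 2.00 (95% confidence interval 1.17 to 2.83, adjusted p = 0.00095). In the limma test for a change beyond 2-fold TCHH was no longer called (Benjamini-Hochberg adjusted p = 0.143). Over all alternatives its adjusted p from limma, edgeR or DESeq2 ran from 0.00044 to 0.143. The other fused S100 genes were near 0. FLG2, HRNR and CRNN, the gene of the esophageal protein cornulin, had no read in any library, TCHHL1 had 1.01 normalized counts in a single library, and RPTN reached 3.73.

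ECM1 encodes an extracellular matrix glycoprotein secreted by keratinocytes and other cells. It had 31.0, 29.3 and 13.1 normalized counts in KYSE450 and 28.6, 19.4 and 15.1 in KEAP1null-KYSE450 libraries. The groups overlapped almost fully, and KYSE450 library 3 was the lowest of all 6. The log2 fold change was -0.16 (95% confidence interval -1.16 to 0.83, adjusted p = 0.793, limma with Benjamini-Hochberg adjustment). It was above 0 without KYSE450 library 1 (0.049), without KYSE450 library 2 (0.0092) and without KEAP1null-KYSE450 library 3 (0.040), and in edgeR and DESeq2 on recovered reads (0.18 and 0.14), so no direction is given.

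**Figure D3:**
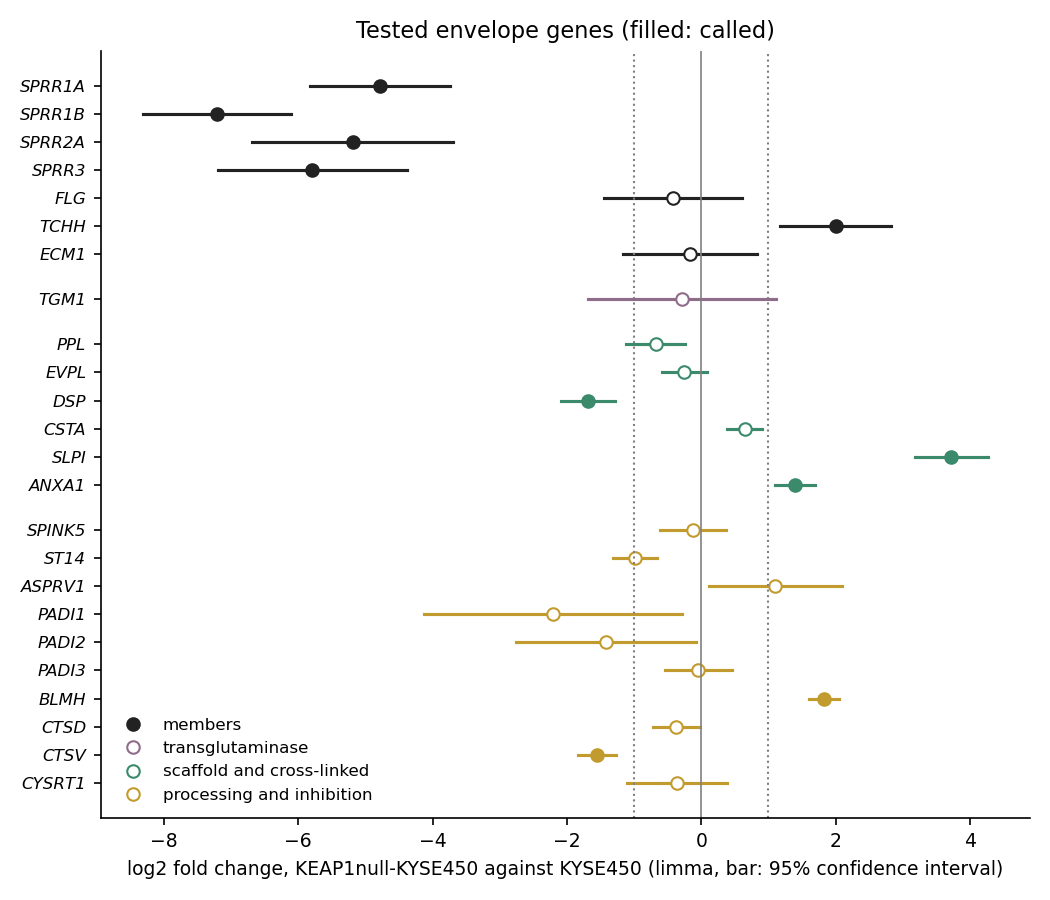
log2 fold changes of KEAP1null-KYSE450 against KYSE450 from limma on log2(normalized count + 1) for the tested members and 3 lists of other envelope genes, with 95% confidence intervals; filled points were called, and dotted lines mark -1 and 1. The 4 SPRR points lie between -7.21 and -4.78 and rest on a line at or under the floor, TCHH lies at 2.00, and the intervals of FLG and ECM1 include 0.

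Levels of different genes were compared per kb of exon, as means ± SD of 3 libraries. In KYSE450 SPRR1B stood at 240.5 ± 43.2 and SPRR1A at 129.8 ± 24.0, which did not overlap. SPRR2A at 52.9 ± 8.22 and SPRR3 at 39.2 ± 12.8 followed, and these neighbours did not differ beyond their spread. SPRR2D (7.71 ± 4.91), ECM1 (7.28 ± 2.95) and SPRR2E (6.69 ± 4.84) could not be separated by their spread. TCHH at 1.90 ± 0.54 and FLG at 1.43 ± 0.37 were likewise within their spread, and IVL was lowest at 0.77 ± 0.24, a level under the floor. Among 16618 tested genes with an annotated length the median in KYSE450 was 149.8 per kb, so SPRR1B was above the median and SPRR1A below it. In that line 58.6% of tested genes were below SPRR1B and 47.4% below SPRR1A.

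In KEAP1null-KYSE450 the order was different. TCHH was the highest member at 7.98 ± 1.73 per kb, followed by ECM1 at 6.26 ± 2.05, and the spreads of this pair overlapped. The length used joins all exons of a gene, 3360 bases for ECM1. With its main transcript of 2046 bases ECM1 would stand above TCHH, whose length is 6985 bases by either measure. SPRR1A stood at 3.44 ± 1.68, SPRR2D at 1.28 ± 2.21 and FLG at 1.05 ± 0.33, while the other 5 members were at 0. TCHH, the highest member there, was above 8.72% of the tested genes, where the median was 152.6 per kb.

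**Figure D4:**
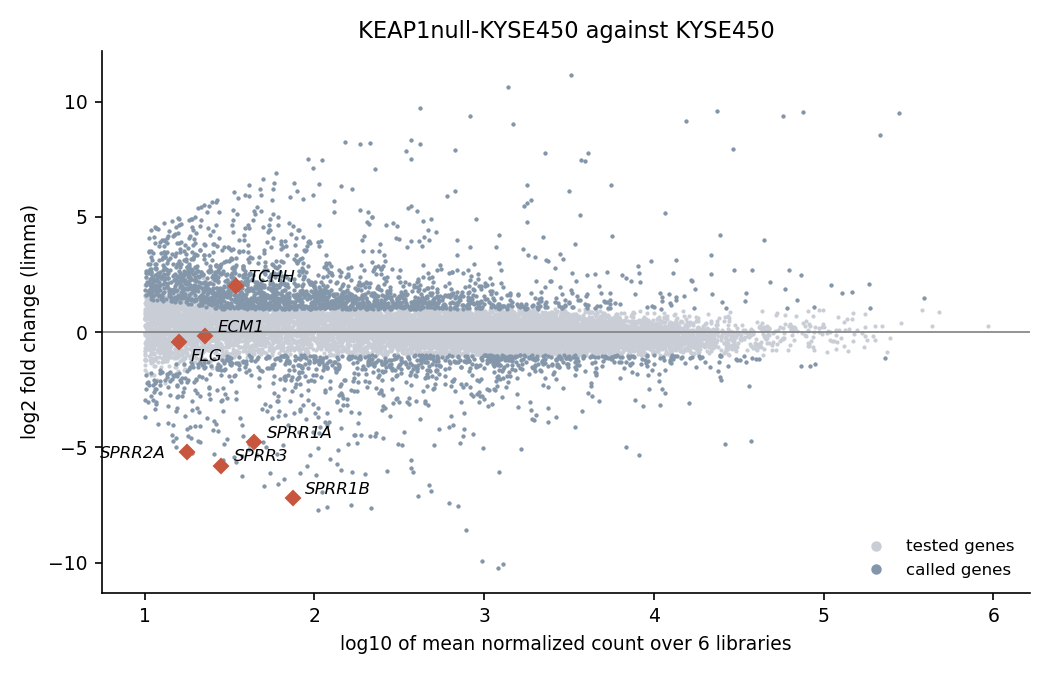
Mean normalized count over the 6 libraries (log10 scale) against the log2 fold change from limma for 16689 tested genes, with called genes in darker grey-blue and tested members as red diamonds. The members lie at the low end of the means, between 15.9 for FLG and 74.4 for SPRR1B, and the 4 SPRR genes lie near the lower edge that genes at 0 in KEAP1null-KYSE450 form.

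The neighbourhood of the SPRR genes was examined because 9 of the 10 members lie in the complex. In the complex 19 of 90 genes were tested, 9 were called lower (47.4%) and 3 higher (15.8%), with a median log2 fold change of -0.58, beside 5.99% lower, 12.2% higher and a median of 0.0040 for all genes tested. Of the 9 lower genes 7 passed the filter through KYSE450 alone and had to differ, namely SPRR1A, SPRR1B, SPRR2A, SPRR3, S100A9, S100A8 and S100A7, so these counts and the median are no support for a shift of the complex. Apart from the members, 5 of 13 tested genes were called lower and 2 higher, and their median was -0.17. The 5 were S100 genes. S100A9, a subunit of calprotectin, fell from 157, 255 and 194 normalized counts to 0.92, 1.02 and 4.04. S100A7 was at 0, 0 and 6.05 in KEAP1null-KYSE450 libraries, and S100A8, the partner of S100A9, was at or under the floor there. Their fitted log2 fold changes of -4.88 and -5.28 depend on the pseudocount, from -7.13 and -7.75 with 0.1 to -2.48 and -2.50 with 10. S100A2, the most abundant S100 gene, had a log2 fold change of -2.07 and S100A3 one of -1.87. S100A3 was not called in the test for a change beyond 2-fold. S100A14 was called higher at 1.04 and lost that call in 7 of 17 other settings: without KYSE450 library 2 (0.96), without KEAP1null-KYSE450 library 3 (0.94), with quantile normalization (0.82), with edgeR (0.90), with DESeq2 (0.87), with a pseudocount of 10 and in the test beyond 2-fold. Over the whole list of S100 genes of the complex, 12 of 16 were tested, with 5 called lower and 1 higher.

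Most tested genes flanking the complex had a log2 fold change below 0, though most of them were not called. Within 5 Mb before it, 80.2% of 81 tested genes had a log2 fold change below 0, with a median of -0.40, and 9.88% were called lower and 3.70% higher. Within 5 Mb after it, 84.1% of 107 tested genes were below 0, with a median of -0.68, and 19.6% were called lower and 4.67% higher. Among all genes tested 49.8% were below 0, with 5.99% called lower and 12.2% higher. How far the shift of the flanks bears on the members was not tested.

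**Figure D5:**
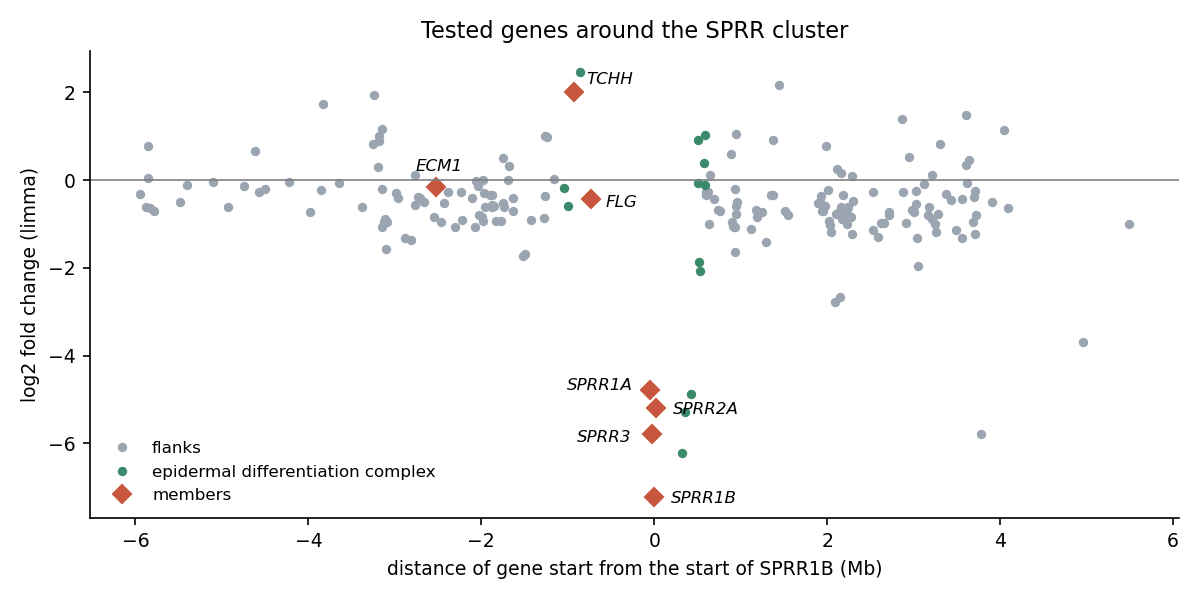
log2 fold change from limma for tested genes against the distance of the gene start from the start of SPRR1B in Mb, with members as red diamonds, other genes of the epidermal differentiation complex in green and genes within 5 Mb of it in grey. The 4 called SPRR genes lie between -7.21 and -4.78, while the flanks centre on -0.40 and -0.68.

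Other precursors of the complex were nearly silent in both lines. Of 18 late cornified envelope genes 14 were at 0 in every library and none was tested. LCE5A, the most abundant, had 4.04 normalized counts in KYSE450 library 2 and 0 elsewhere. LOR, the gene of loricrin, the main envelope protein of skin, had 1.07 normalized counts in 1 KYSE450 library and 0 in the others. KPRP, the gene of a keratinocyte proline-rich protein, had the opposite order to the SPRR genes, with 0 in KYSE450 libraries and 17.5, 4.08 and 2.02 normalized counts in KEAP1null-KYSE450 libraries. Most of that level came from library 1, so no fold is given, and KPRP was not tested.

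The enzymes that join the precursors were low as well. TGM1, the membrane-anchored transglutaminase of keratinocytes, had 27.8, 5.05 and 13.99 normalized counts in KYSE450 and 15.7, 6.12 and 11.1 in KEAP1null-KYSE450 libraries. The groups overlapped, and its log2 fold change of -0.29 (adjusted p = 0.735, limma with Benjamini-Hochberg adjustment) turned to 0.24 without KYSE450 library 1 and to 0.045 without KEAP1null-KYSE450 library 2. TGM3 had no read, and TGM2 and TGM5 were at or under the floor.

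Envelope proteins encoded elsewhere in the genome did not share a direction. Of 10 listed scaffold and cross-linked proteins 6 were tested, 2 were called higher and 1 lower, with a median log2 fold change of 0.20, beside 12.2% higher, 5.99% lower and a median of 0.0040 for all genes tested. SLPI, the gene of a secreted inhibitor of neutrophil elastase, had 62.0, 85.9 and 39.2 normalized counts in KYSE450 and 687, 815 and 902 in KEAP1null-KYSE450 libraries. ANXA1, the gene of annexin A1 and the most abundant of the list, was higher by a log2 fold change of 1.39 but not called in the test for a change beyond 2-fold. DSP, the gene of the desmosomal plaque protein desmoplakin, was lower at -1.69. PPL and EVPL, which encode the plakins periplakin and envoplakin, had log2 fold changes of -0.68 and -0.25 and CSTA, the gene of cystatin A, 0.64, all short of the threshold. Of 14 genes for processing and protease inhibition in cornification 10 were tested, with a median of -0.37. BLMH, the gene of bleomycin hydrolase, which degrades filaggrin peptides, was higher (log2 fold change 1.83) and CTSV, the gene of cathepsin V, lower (-1.55). CTSD, the most abundant gene of this list, had a log2 fold change of -0.37 and was not called.

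The genes whose levels followed SPRR1B most closely over the 6 libraries, among 12288 genes with a mean of at least 100, were CDH13, C15orf41, KMO, KRT17 and ZWINT. Pearson's r of the log2 values lay between 0.9988 and 0.9994. These 6 points fall into 2 lines with SPRR1B at 0 in one of them, so r describes little beyond the difference between the lines. KMO, like SPRR1B, had no read in KEAP1null-KYSE450 libraries, with 189, 183 and 255 normalized counts in KYSE450. ZWINT followed the same order with a log2 fold change of -0.50.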

How the data were processed

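Total RNA sequencing of 3 KYSE450 and 3 KEAP1null-KYSE450 libraries was analysed. The authors deposited normalized counts, in unit a signal. Per the submitters' notes and methods, reads were filtered (FastQC 0.11.5, cutadapt 1.12), aligned to hg38 with STAR 2.6.90c, counted with featureCounts 1.5.1 and normalized. Whether counting used strand is not given in the sources used here. A RefSeq annotation is named, while the 58884 rows carry Ensembl identifiers, 273 of them without a symbol. Columns carry no replicate number, so libraries were numbered by their order. In each library 100% of values above 0 were whole multiples of 1 step (tolerance 0.01 of a step), but with steps near 1 the reads of 1 library of each line were not taken as recovered.

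The lines were compared by limma 3.58.1 in R 4.3.3 (eBayes with trend, two-sided) on log2(normalized count + 1), which understates the change of low genes, with Benjamini-Hochberg adjustment. Only genes whose mean reached 10 were tested. edgeR 4.0.16 and DESeq2 1.42.0, run on the 4 recovered libraries, called 2698 and 2500 genes. The tests were checked on simulated data. Positions and exon lengths came from GENCODE version 44. Alternatives were a pseudocount of 0.1 or 10, a mean of 100 or no filter, rescaling to equal totals, quantile normalization, leaving out each library, eBayes without trend, calls without a fold change cutoff or beyond 2-fold, and both count tools. Named genes were the members, the label check, up to 5 called genes in each direction and the most abundant gene of each list, and the 5 genes most like SPRR1B. FLG-AS1 and other genes outside this rule were named after their values were seen, and some genes that the rule names are not reported here. The members and lists were chosen with earlier results of these data known.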

Additional observations from a re-analysis of the deposited data

How the results depend on the processing

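Over 17 other settings, the 7 tested members gave 112 values, of which 106 kept their direction and their side of the threshold. With a mean of at least 100 no member was tested. Most of the values that kept both came from the 4 SPRR genes called lower, which passed the filter through KYSE450 alone and had to differ, so this count is no sign of stability. Their fitted log2 fold changes varied with the pseudocount. The exceptions were TCHH, which left 0 members called higher in the test against a fold change of 2, and the direction of ECM1, which was 0.18 with edgeR, 0.14 with DESeq2 and between -0.55 and 0.049 when a library was left out. Without a filter, where 1125 of 28641 tested genes were called lower, SPRR2D and SPRR2E were called lower too and IVL was not. Among 39 other named genes 623 of 653 values kept direction and call. In the test against a fold change of 2 ANXA1, ELOVL4, ALOXE3, GRHL1, S100A14, S100A3, KRT5, KRT13 and CDH5 were not called. KEAP1 reversed at 0.016 with the same total, 0.14 with quantile normalization and between -0.072 and 0.040 with a library left out. VWF was -0.22 and PMEL -0.18 with quantile normalization, and with a library left out PMEL ran from -0.015 to 0.34 and TGM1 from -0.88 to 0.24. The cause was not tested.

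Of all genes, 874 were called higher with a mean of at least 100, where fewer genes were tested. Without a fold change cutoff 4058 were called higher and 4251 lower, and against a fold change of 2 the numbers were 626 and 394, as those rules imply. Higher calls were 67.2% of all calls, and 51.9% with quantile normalization. The median of the complex was -0.30 without a filter, -0.11 with a mean of at least 100, -1.06 with quantile normalization, -0.87 with edgeR and -0.90 with DESeq2. The median before the complex was -0.28 without a filter, -0.54 with a mean of at least 100, -0.49 with quantile normalization and between -0.51 and -0.39 with a library left out. The median after the complex was -0.49 without a filter. The cause was not tested. No paired analysis was possible because the columns carry no replicate number. Depth limits IVL, SPRR2D and SPRR2E, whose means over the 6 libraries were 0.83, 4.73 and 2.46 normalized counts, under the filter of 10.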

Other observations

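Of 18 transcription factors known to act on envelope genes 16 were tested, and 3 were called lower in KEAP1null-KYSE450 and 1 higher. Their median on the log2 fold change scale was -0.60. Across all genes tested 5.99% were called lower and 12.2% higher, with a median of 0.0040. KLF4, a factor of suprabasal differentiation, went from 2811, 2419 and 2363 normalized counts in KYSE450 libraries to 833, 722 and 948 in KEAP1null-KYSE450 libraries, and GRHL1 had a log2 fold change of -1.42. MAF had 43.9, 43.5 and 33.6 normalized counts in KYSE450 and 1.85, 4.08 and 0 in KEAP1null-KYSE450 libraries, so it passed the filter through KYSE450 alone and had to differ. TP63, the most abundant factor of the list, had a log2 fold change of -0.60 and was not called.

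Enzymes and transporters that supply the lipids bound to the envelope did not share a direction. Of 9 in the matrix 6 were tested, and 2 were called higher and 1 lower. The median of their log2 fold changes was 0.67, beside the same values for all genes tested as above (5.99% lower, 12.2% higher, median 0.0040). ABCA12, which loads lipids into lamellar granules, had 107, 64.7 and 52.2 normalized counts in KYSE450 and 316, 376 and 239 in KEAP1null-KYSE450 libraries. ELOVL4, which makes very long fatty acids, had a log2 fold change of 1.07. ALOXE3, an epidermal lipoxygenase, was lower at -1.71. In the test against a fold change of 2 none of ELOVL4, ALOXE3 and GRHL1 was called.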
